A study of Lotus japonicus with 6 samples.

Results

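Unmodified leaf of Lotus japonicus was described from 3 of the 6 arrays of a study of the transcription factor LjMyb14, namely the arrays titled wild type leaf 1, 2 and 3. All plants were of accession MG20 and were raised in vitro, on MS medium of reduced salt strength (1/2), and the plants used here were labelled wild type, with no transgene named. The other 3 arrays held leaf RNA of overexpressing lines and were not analysed here. Each array was a custom 1-colour (Cy3) Agilent design whose names cover families of transcription factors, enzymes of secondary metabolism, defence genes and transporters. The wild type arrays were read at 6358 probes, which carried 3469 names and were grouped into 2881 genes in 103 families by the first letters of the name.

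Leaves of Lotus japonicus store the cyanogenic glucosides linamarin and lotaustralin, which release hydrogen cyanide when tissue is crushed. The plant also makes flavonols, anthocyanins and condensed tannins from phenylalanine, and as a legume it can branch the same pathway towards isoflavonoid defence compounds such as vestitol. Transcription factor families such as MYB, bHLH, WRKY, NAC and MADS-box regulate these branches, leaf growth and, in other organs, flower and seed development.

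A level is the log2 signal of a probe minus the log2 of the 75th percentile of its array, so that 0 lies at that percentile and a step of 1 is a factor of 2. A probe was called above background where the scanner software flagged at least 0.5 of its spots as well above background on an array, and a gene where at least 1 probe was called so on all 3 arrays. A gene with no such probe on any array is described as not well above background, which is a limit of the signal and does not show that there was no transcript. Signal depends on the probe as well as on the transcript, so an order of genes is an order of signals. Of the 3469 names 2889 had several probes, which differed by a median of 0.80, and for 252 names 1 probe was above background on all arrays and another on none. The gene level used here is that of its brightest probe, and other probes are given for the genes the results turn on.

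Arrays 1 and 3 could not be told apart from repeat readings of 1 sample. Set against the scatter of spots of the same probe within an array, the difference between them had 0.442 times the variance that this scatter alone gives, so it was smaller than sampling noise. The ratio was 2.83 for arrays 1 and 2 and 2.66 for arrays 2 and 3. They were averaged and counted as 1 sample, so that means and SDs are over n = 2. The labels do not say whether the arrays came from separate plants, and an SD then measures only the spread between these samples, which may be technical. Between 74.2% and 80.1% of the probes were above background per array, no spot was saturated, and the 75th percentile lay between intensities of 364 and 388. The lowest level called above background was -7.08, -7.40 and -6.67 on arrays 1, 2 and 3. Values near or under these bounds have no order.

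Most of the genes on the array gave signal in wild type leaf. Of 2881 genes, 2284 (79.3%) were above background on all 3 arrays, 293 (10.2%) on some arrays or with different probes, and 304 (10.6%) on none. Counted by probe, 4632 of 6358 (72.9%) were above background on all 3 arrays. The classes differed little: 721 of 901 metabolism genes (80.0%), 1318 of 1684 transcription factor genes (78.3%), 145 of 176 transport genes (82.4%) and 90 defence genes (84.1%) were above background. Single families lay much further apart than the classes. Among the 46 families of at least 10 genes, 18 had a smaller share above background than all genes and 28 a larger one.

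**Figure D1:**
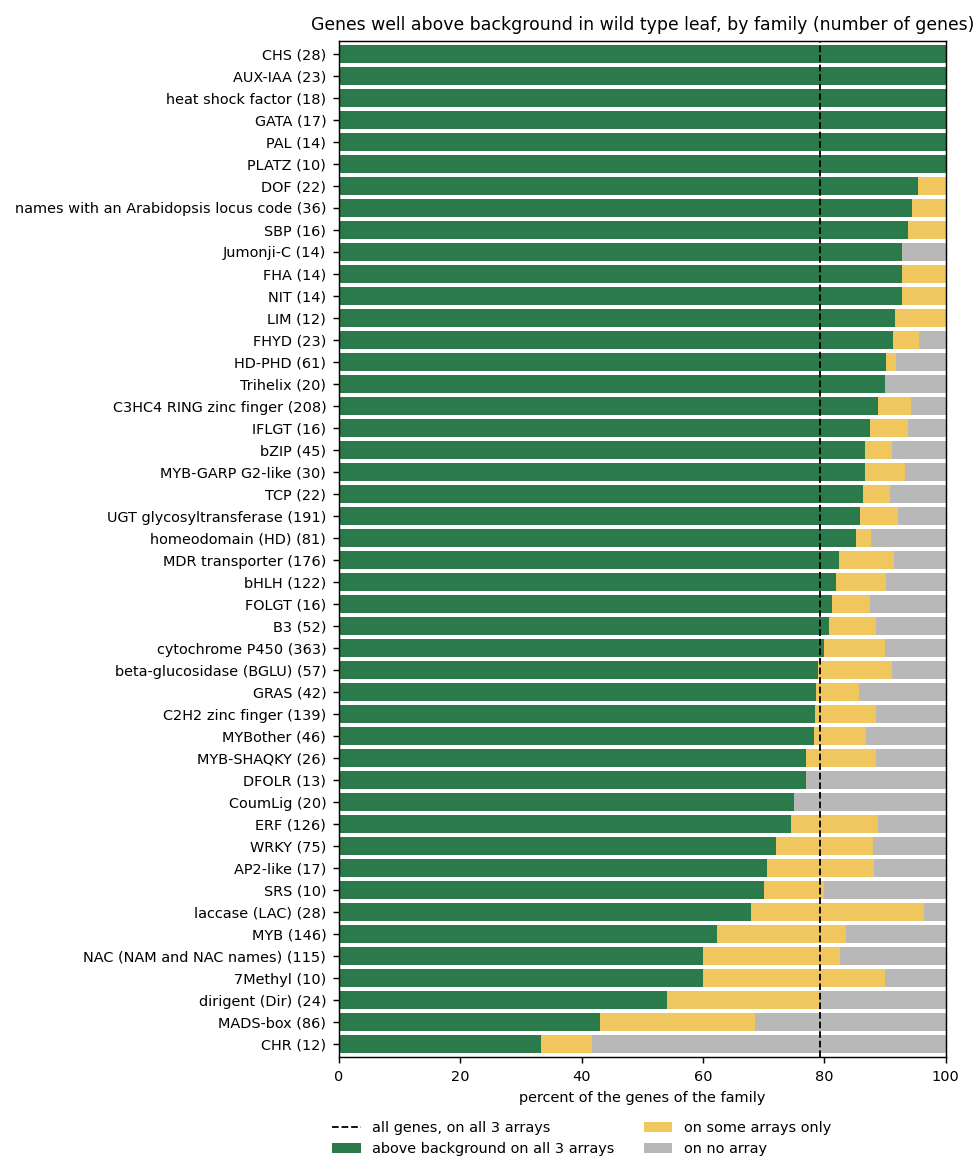
Share of the genes of each family above background in wild type leaf, for the 46 families of at least 10 genes (number of genes in brackets). Green is the share on all 3 arrays, yellow on some arrays only, grey on none, and the dashed line marks the 79.3% of all genes. The CHS, AUX-IAA, heat shock factor, GATA, PAL and PLATZ families reach 100%, while CHR (33.3%) and MADS-box (43.0%) are at the bottom.

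In 6 families every gene was above background on all 3 arrays. They were the 28 chalcone synthase (CHS) genes, the 23 AUX-IAA genes, the 18 heat shock factors, the 17 GATA zinc fingers, the 14 phenylalanine ammonia-lyase (PAL) genes and the 10 PLATZ zinc fingers. The number of such families depends on the call: it was 2 with every probe of a gene required. It was 10 with the 99th percentile of negative controls as the bound. The AUX-IAA genes, whose proteins repress auxin-responsive transcription, had the highest family median at 3.90, and PAL, the entry enzyme of phenylpropanoid synthesis, the next at 3.14. The medians of the heat shock factors (-1.38) and of PLATZ (-2.19) were lower, against -2.12 for all genes.

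The families with the smallest shares were CHR, MADS-box, dirigent, 7Methyl, NAC, MYB and laccase. Of 12 CHR genes, a code read here as chalcone reductase, 4 were above background and 7 were not on any array. The MADS-box family, which includes the organ identity factors of flowers, had 37 of 86 genes above background, 22 in part and 27 on no array. With every probe of a gene required, its share was 17.4%, and that of the dirigent genes 33.3%, beside 62.8% of all genes. Dirigent proteins, which guide the coupling of monolignols, had 13 of 24 above, and laccases, which oxidise monolignols in cell walls, 19 of 28 (67.9%) with only 1 gene on no array. The code 7Methyl, which the files do not spell out, had 6 of 10 genes above. Of 146 MYB genes, 91 (62.3%) were above background and 24 on no array. Relative to the median of all genes the medians of MADS-box, NAC and MYB were -4.29, -2.74 and -2.50, and with another background correction (normexp) they were -1.22, -0.999 and -0.99.

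**Figure D2:**
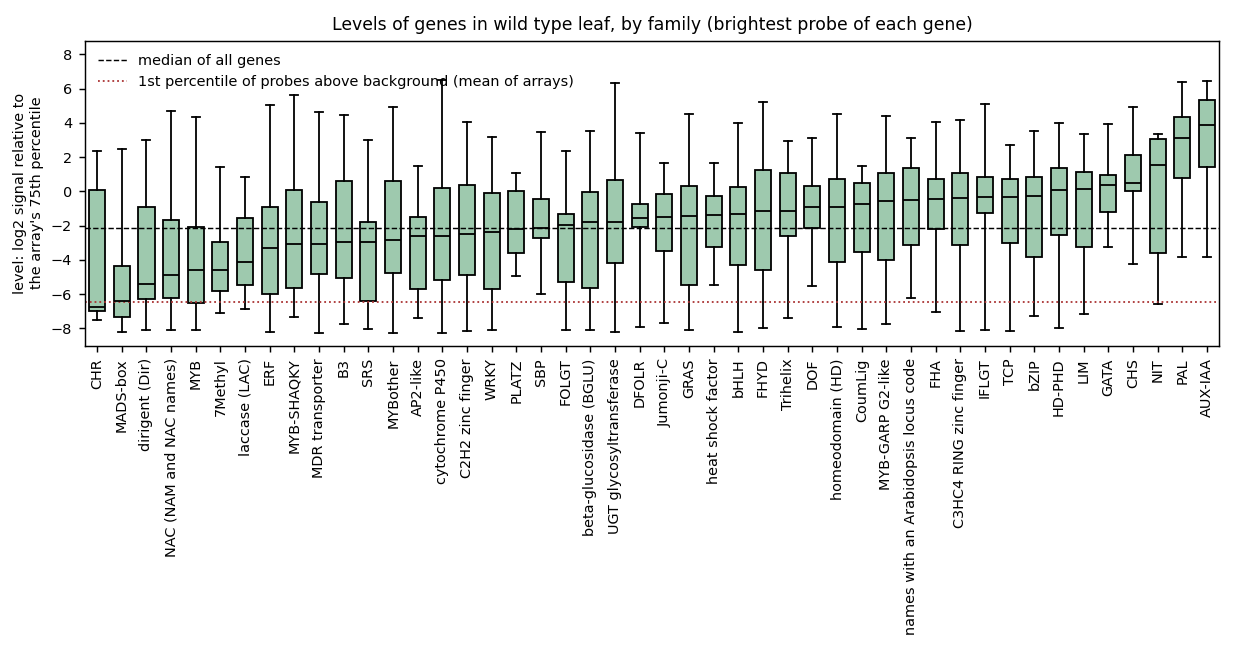
Levels of the genes of each family of at least 10 genes, as log2 signal relative to the 75th percentile of the array, in order of the family median. Boxes span the middle quartiles of the genes with a line at the median, whiskers reach the lowest and highest gene, the dashed line is the median of all genes (-2.12), and the dotted line is the mean over arrays of the 1st percentile of probes above background. Medians run from -6.72 for CHR to 3.90 for AUX-IAA, and most families span the whole range from background to above 0.

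The highest mean signal was that of a gene of cyanogenic glucoside synthesis. CYP79D3_ntc, the cytochrome P450 that turns valine and isoleucine into oximes in Lotus, stood at 6.70, 6.29 and 6.69 on arrays 1, 2 and 3, a mean of 6.49 ± 0.29 (SD, n = 2). Its other probe gave 6.57, 6.04 and 6.52. Both probes were lower on array 2 than on the other arrays. The next gene, LjAUX-IAA10, had a mean of 6.44, closer than this SD, and on array 2 it stood higher than CYP79D3 at 6.39, as did LjAUX-IAA7 at 6.36. A sequence named CYP79D_LjSGA_030566.2 gave 6.49, 6.01 and 6.50, the same pattern; whether it is the same gene under another name was not tested.

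The further steps of the pathway were also bright, as far as the names identify them. CYP736A2_ntc, which converts the oximes to cyanohydrins in Lotus, gave 5.19, 5.36 and 5.15 at one probe and 3.05, 3.37 and 3.10 at the other. All 11 genes named UGT85J were above background; UGT85 enzymes of several plants glucosylate cyanohydrins. The brightest, UGT85J_LjT45I18.30.nd, stood at 6.45, 6.21 and 6.47, and UGT85J_chr3.CM0241.610.nc at 5.84, 5.74 and 5.80. The range of the 11 genes was from -1.97 to 6.34, so the name alone did not mark a high level. CYP79D4_ntc, a close copy of CYP79D3 known mainly from roots, gave 4.07 and 3.16 on arrays 1 and 2 at one probe, with a mean of 3.60 ± 0.62 (SD, n = 2), and -2.37, -3.14 and -2.66 at the other. Its probes disagreed by more than 6 on the log2 scale, so no level can be given for it, and how far CYP79D3 transcript reaches the brighter probe was not tested.

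Cyanide released in the leaf is bound by beta-cyanoalanine synthase and the product is hydrolysed by nitrilases of the NIT4 type. Of 7 genes with the code cyala, read here as beta-cyanoalanine synthase, 6 were above background, and cyala02_LjB12P21.10.nc was the brightest at 4.12, 4.27 and 4.16. NIT05_LjNIT4A stood at 3.19, 3.43 and 3.26 and NIT06_LjNit4B at 3.16, 3.38 and 3.17. Both were slightly higher on array 2, while CYP79D3 was lower there. Across synthesis and detoxification 25 of 27 genes were above background with a median level of 2.38, against 79.3% and -2.12 for all genes. The exception on every array was CYP79D_LjSGA_026917.2, at -7.93, -7.05 and -6.96. The whole nitrilase family had 13 of 14 genes above background and a median of 1.56.

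**Figure D3:**
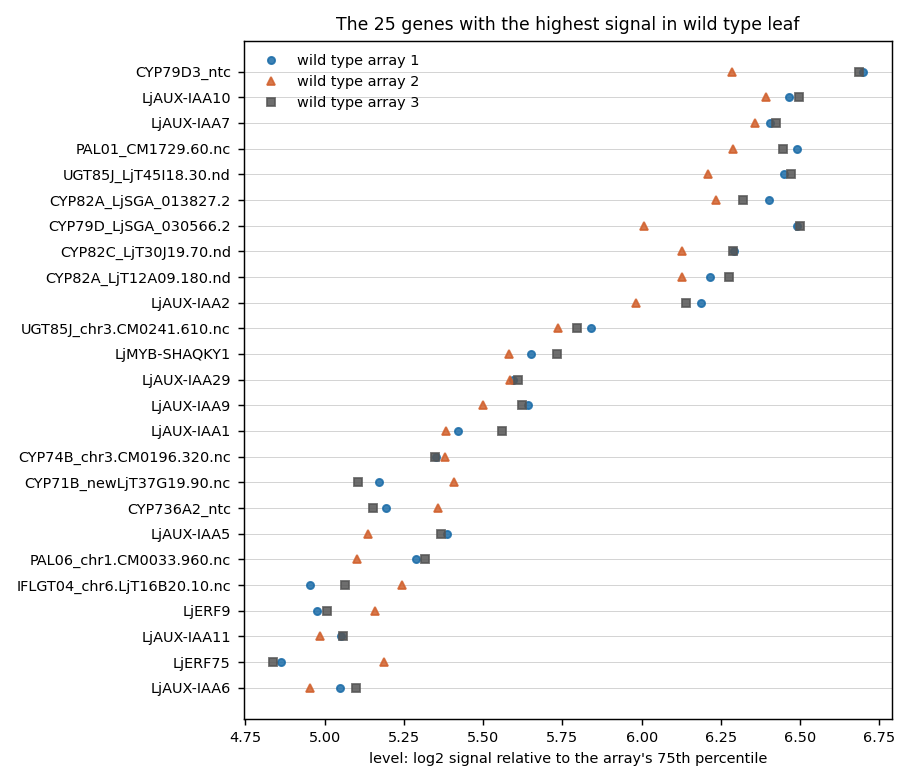
The 25 genes with the highest signal in wild type leaf, as log2 signal relative to the 75th percentile of the array, with 1 symbol per array for the brightest probe. CYP79D3_ntc has the highest mean at 6.49, but LjAUX-IAA10 and LjAUX-IAA7 stand higher on array 2; arrays 1 and 3 nearly coincide, and array 2 is the lowest for every AUX-IAA and PAL gene shown but the highest for CYP74B, CYP71B and CYP736A2.

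The 50 brightest genes came from 20 families, with 24 of transcription factors, 24 of metabolism and 2 of transport. Cytochrome P450 genes took 13 places and made up 12.6% of all genes, AUX-IAA genes took 10 and made up 0.798%, UGT glycosyltransferases took 4, and PAL and ERF genes 3 each. Without array 2, PAL made up 10% of the 50 in place of 6%. The AUX-IAA genes were LjAUX-IAA10 (6.47, 6.39 and 6.50), LjAUX-IAA7 (6.41, 6.36 and 6.42), LjAUX-IAA2 (6.19, 5.98 and 6.14), LjAUX-IAA29 (5.59, 5.58 and 5.61), LjAUX-IAA9 (5.64, 5.50 and 5.62) and LjAUX-IAA1 (5.42, 5.38 and 5.56) among the first 15. Their arrays lay closer together than those of CYP79D3. The other probe of LjAUX-IAA9 gave 1.94, 2.19 and 2.16, and a probe of LjAUX-IAA10 under an EST name gave 2.53, 2.47 and 2.64, so the rank of single members rests on the probe. All 7 auxin response factor (ARF) genes, whose proteins bind the promoters that AUX-IAA proteins silence, were above background as well, at a lower median of -0.52.

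Besides CYP79D, the P450 genes among the 15 brightest belonged to the CYP82 family. CYP82A_LjSGA_013827.2 stood at 6.40, 6.24 and 6.32, CYP82C_LjT30J19.70.nd at 6.29, 6.13 and 6.29, and CYP82A_LjT12A09.180.nd at 6.22, 6.13 and 6.28. The second probes of these 3 genes had means of 6.11, 6.04 and 6.05, close to the first. No function in Lotus is given for them in the files. CYP74B_chr3.CM0196.320.nc, of the subfamily of hydroperoxide lyases that make green leaf volatiles, gave 5.35, 5.38 and 5.35, followed by CYP71B_newLjT37G19.90.nc and CYP736A2_ntc, both at a mean of 5.27. The MYB-related gene LjMYB-SHAQKY1 was the brightest transcription factor outside AUX-IAA at 5.65, 5.58 and 5.73, with further probes at means of 4.02 and 3.35.

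Across all 363 P450 genes 290 (79.9%) were above background, close to the share of all genes, and the subfamilies differed from each other. Every gene of CYP706 (6 genes), CYP707 (8), CYP74 (8), CYP701 (7) and CYP81 (7) was above background, as were 28 of 30 CYP82 and 23 of 25 CYP76 genes. Among subfamilies of at least 5 genes the smallest shares were in CYP86, with 3 of 8 genes, CYP85 with 2 of 5, and CYP93 (9 of 15) and CYP89 (3 of 5). In UGT, 164 of 191 genes (85.9%) were above background, from all 10 UGT81 genes and all 11 UGT85 genes down to 5 of 8 UGT87 genes. These subfamilies hold few genes each, and their shares are counts without a test.

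In general phenylpropanoid metabolism 35 of 40 genes (87.5%) were above background, beside 79.3% of all genes. PAL01_CM1729.60.nc was the fourth brightest gene of the array at 6.49, 6.29 and 6.45, with its other probe at 6.09, 5.95 and 6.11. Next among the 14 PAL genes were PAL06_chr1.CM0033.960.nc (5.29, 5.10 and 5.32) and PAL04_chr1.CM0033.850.nc (4.42, 4.28 and 4.43). The lowest PAL gene was still above background at a mean of -3.83. Cinnamate 4-hydroxylase, the second enzyme, had 6 of 6 genes above background with the highest at a mean of 4.11. CoumLig, read here as coumarate ligase, had 15 of 20 (75%) above and the other 5 on no array, among them CoumLig17_LjB09A03.100.nc and CoumLig3_chr5.CM0909.780.nc. The brightest, CoumLig6_chr4.CM0061.190.nc, gave 1.73, 1.31 and 1.68, lower than the brightest genes of PAL and C4H by signal.

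Of the 87 genes listed for chalcone and isoflavonoid synthesis, 76 were above background (87.4%), 10 on no array, and the median level was 0.11. The values for all genes were 79.3% and -2.12, and the difference was not tested. All 28 CHS genes, which make the chalcone skeleton, lay between -4.24 and 4.95. CHS26_LjSGA_120506.1 stood at 4.98, 4.96 and 4.91 at one probe and 2.07, 1.85 and 2.13 at the other, and CHS29_LjSGA_022124.2 at 5.13, 4.73 and 5.14. Chalcone isomerase (CHI) had 6 of 6 genes above background, isoflavone synthase (CYP93C) 4 of 4, isoflavone 2'-hydroxylase (I2H or CYP81E) 9 of 9, vestitone reductase (VR) 3 of 3 and pterocarpan reductase (PTR) 2 of 2. The highest CYP93C gene had a mean of 2.26 and the other 3, such as CYP93C_LjSGA_087856.1 at -1.19, -0.83 and -1.17, lay below -1. Each listed step had at least 1 gene above background in leaf that was not treated. With 79.3% of all genes above background, this does not set the branch apart from the rest of the array.

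The HID, IFR and CHR genes ranged from bright to not well above background. In 2-hydroxyisoflavanone dehydratase (HID), 7 of 9 genes were above background; HID5_chr4.CM0079.310.nc stood at 4.51, 4.63 and 4.51 and its neighbour by name HID7_chr4.CM0079.300.nc at -8.23, -8.26 and -7.63, not well above background on any array. Isoflavone reductase (IFR) had 8 of 9 above, led by IFR7_chr2.CM0249.1080.nc at 4.27, 5.04 and 4.29. In the CHR code, CHR01_LjT35G18.140.nd gave 2.28, 2.48 and 2.28 and CHR02_LjT35G18.70.nd 0.12, 0.17 and 0.15, while CHR03_LjT35G18.90.nd (-7.72, -7.40 and -7.50) and CHR10_LjT35G18.80.nd (-7.81, -6.73 and -7.60) of the same clone were not well above background. All 5 genes with the related code PKR, read here as polyketide reductase, were above background, between -2.12 and 0.52. The low share of CHR therefore did not extend to PKR.

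**Figure D4:**
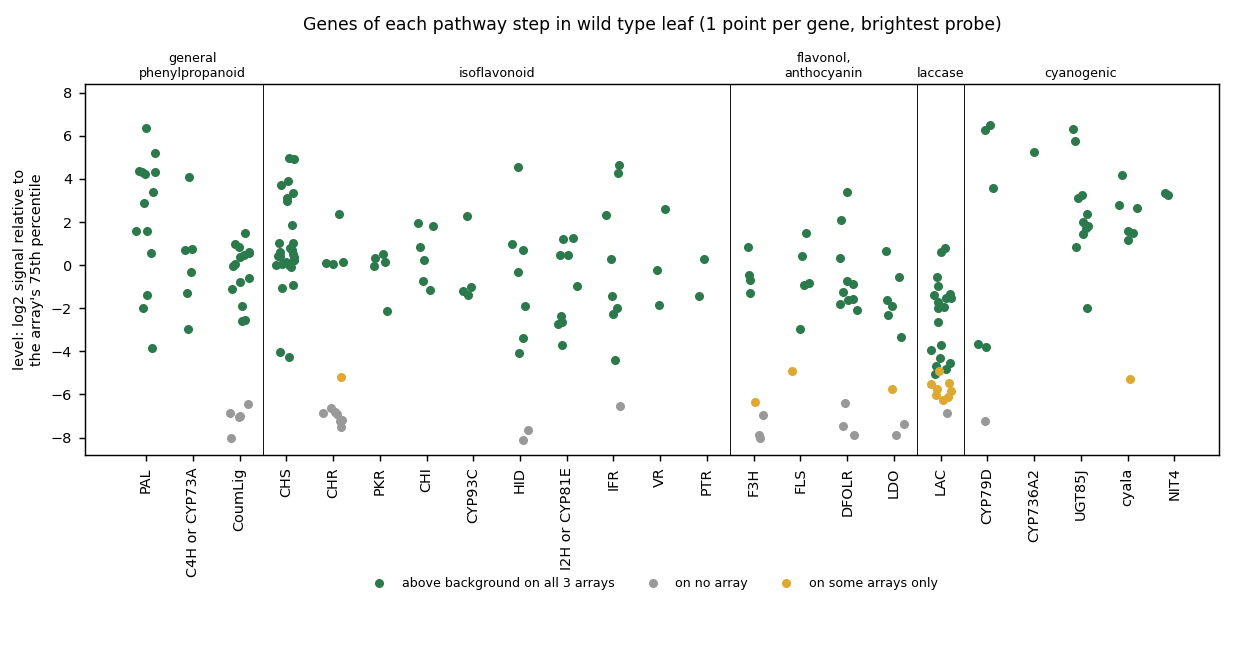
Levels of the genes of each step of phenylpropanoid, isoflavonoid, flavonol and anthocyanin, laccase and cyanogenic metabolism in wild type leaf, as log2 signal relative to the 75th percentile of the array (1 point per gene, brightest probe, mean over samples). Green genes were above background on all 3 arrays, yellow on some, grey on none. Each step has at least 1 green gene; 7 of 12 CHR genes are grey, and the LAC genes lie below those of PAL for the most part.

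Of 61 genes listed for the flavonol and anthocyanin branch 47 (77.0%) were above background, at a median of -1.46. This list includes 23 genes of the code FHYD, which is not spelled out, so the share is not that of the identified steps alone. Flavonol synthase (FLS) had 5 of 6 above, dihydroflavonol reductase (code DFOLR) 10 of 13 and flavanone 3-hydroxylase (F3H) 4 of 8, with 3 on no array. Leucoanthocyanidin dioxygenase (code LDO) had 6 of 9 and leucoanthocyanidin reductase (LAR) 1 of 2. The brightest DFOLR gene was DFOLR01_chr3.CM0396.200.nc at 3.48, 3.34 and 3.48, while the highest F3H gene reached a mean of 0.82. Under the code FHYD 21 of 23 genes were above background. FHYD08_LjT37G19.90.nc and FHYD16_LjSGA_065598.1 share their locus identifiers with genes named CYP71B and CYP703A, so the code may hold P450 genes of other pathways. F3H03_chr1.LjT23O20.50.nd, at -7.59, -8.43 and -7.59, was not well above background on any array. LjMYB14, the transcription factor that the lines of the study were made to overexpress, was at the edge of detection in wild type leaf. One probe of LjMYB14 gave -6.07, -5.20 and -5.89 and was above background on 2 arrays, and the other gave -7.85, -7.82 and -6.83 and was on none. LjMYB76a, also kept on the list of named genes, gave -1.82, -1.59 and -1.75, above background on all 3 arrays.

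Of 31 genes listed for lignin 21 (67.7%) were above background at a median of -3.92, beside 79.3% and -2.12 for all genes. The difference was not tested. Of the 31 genes 28 were laccases, with 19 above background (67.9%) at a median of -4.11, so the list mainly describes that family. CYP98A_LjSGA_096258.1, of the coumarate 3'-hydroxylase subfamily, gave 1.90, 1.19 and 1.86. The brightest laccases were LAC04_chr1.CM0147.300.nc (0.83, 0.79 and 0.85) and LAC02_chr1.CM0147.770.nc (0.56, 0.66 and 0.64). On a clone of another chromosome, CM0344 of chromosome 5, only 1 of 5 laccase genes was above background. The dirigent gene Dir08_LjSGA_058477.2 stood far above most of its family at 2.78, 3.26 and 2.77.

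Hormone metabolism by P450 enzymes was detected at low to middle levels. In gibberellin metabolism 19 of 21 genes were above background (90.5%, median -2.41), including all 7 CYP701 genes for ent-kaurene oxidase. All genes of the array stood at 79.3% and a median of -2.12. CYP88A_LjSGA_147856.1, of the ent-kaurenoic acid oxidase family, gave 1.29, 1.28 and 1.21. In brassinosteroid metabolism 19 of 23 were above (82.6%, median -2.11), close to the values of all genes. The brightest was CYP90A_LjSGA_014057.1 at 1.92, 2.15 and 1.86, and CYP85 had 2 of 5 above. All 8 CYP707 genes, whose enzymes break down abscisic acid, were above background. The brightest of them, CYP707ALT_1_ntc, was uneven between arrays at 1.91, 0.42 and 1.57.

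Among oxylipin and jasmonate genes 24 of 29 were above background (82.8%, median -2.40), close to the 79.3% and -2.12 of all genes. They included all 8 CYP74 genes but only 2 of 5 lipoxygenases. Lipoxygenase_05_chr3.CM0115.100.nd gave 3.75, 3.51 and 3.60 at one probe, while its other probe was above background on only 2 arrays at a mean of -5.90. All 3 CYP97 genes, of the carotenoid hydroxylase family, were above background, led by CYP97B_chr2.CM0018.70.nc at 2.83, 2.91 and 2.85. All 4 sterol genes were too, with CYP51LT_1_ntc, the sterol demethylase, at 4.08, 4.05 and 4.13. Of 30 P450 genes of cutin and pollen wall families 21 were above (median -4.87). Within this list CYP77A_LjSGA_017234.1 (4.43, 4.48 and 4.40) and CYP86A_LjSGA_002722.1 (3.73, 3.51 and 3.77), of subfamilies that hydroxylate cutin acids in Arabidopsis, stood high. The CYP703 and CYP704 genes, of families that make pollen wall precursors in Arabidopsis, reached at most -0.89 and -1.72.

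Of 29 genes named after Arabidopsis immune receptors 22 were above background (75.9%, median -3.85), a smaller share and a lower median than those of all genes (79.3% and -2.12): 7 of 8 CERK1 and 7 of 8 LysM genes, which relate to chitin perception, 3 of 4 BAK1, 2 of 3 FLS2 and 3 of 6 EFR genes. BAK1_03_chr2.CM0031.280.nc, named after a co-receptor, gave 2.48, 2.41 and 2.51 at one probe and was not well above background at the other. Downstream, 9 of 10 signalling genes were above background, with RIN4_02_chr3.CM0423.340.nc at 3.63, 3.78 and 3.62 and EDS1_01_LjB09A03.40.nc at 3.48, 3.58 and 3.46. All 11 genes of penetration resistance were above, with PEN3_02_LjSGA_070603.1, named after an ABC transporter, at 3.72, 3.85 and 3.77.

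Glycosyltransferases had 166 of 193 genes above background (86.0%) and glycosidases 50 of 64 (78.1%), beside 79.3% of all genes. The glycosidase share was thus close to that of all genes, and the difference between the lists was not tested. IFLGT04_chr6.LjT16B20.10.nc, which is also on the array as UGT73B_chr6.LjT16B20.10.nc, gave 4.95, 5.24 and 5.06 under the first name and 5.06, 5.20 and 4.98 under the second. Across 69 loci carried under 2 names the median difference was 0.07. The brightest beta-glucosidase was BGLU7_LjSGA_145401.1 at 3.44, 3.60 and 3.58. Of the transporter names with the code MDR, read here as multidrug resistance type, 145 of 176 were above background (82.4%, median -3.07). This share was also near that of all genes. MDR166_LjT10F13.50.nd stood at 4.58, 4.73 and 4.59 and MDR025_LjT40K11.90.nc at 4.69, 4.26 and 4.69.

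Among transcription factors the label of leaf could be set against few markers. YABBY genes, which mark the lower side of leaves and other lateral organs, had 5 of 6 above background (83.3%), led by LjZF-C2C2-YABBY6 at 1.22, 1.26 and 1.23. This share is near the 79.3% of all genes, so it does not bear on the label. The list set against them held all 86 MADS-box genes and 2 LEAFY genes, and the names do not tell which MADS-box genes act in flowers. Of these 88 genes 38 were above (43.2%), with LEAFY at 1 of 2 and at most -4.60. Names for photosynthesis, root or nodule, seed, xylem and epidermis genes were not found on the array by their usual codes, so these cell types were not checked. The MADS-box genes with signal were led by LjMADS24 (2.63, 2.35 and 2.63), LjMADS43 (2.26, 2.38 and 2.24) and LjMADS13_est (1.91, 1.76 and 1.90). No gene of the family was among the 50 brightest.

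The NAC family consisted of genes named LjNAC and genes named LjNAM, which differed in signal. All 6 LjNAC genes were above background, at a median of 4.09 and none lower than 0.74, while 63 of 109 LjNAM genes (57.8%) were, at a median of -4.97, and 20 were on no array. LjNAC5 gave 4.59, 4.76 and 4.59, LjNAC1_est 4.41, 4.28 and 4.32, and LjNAC2 4.09, 4.10 and 4.08. This split by name was seen in the values first and has no test. MYB genes with signal were led by LjMYB54 (4.45, 4.25 and 4.43), LjMYB45_est (3.18, 2.69 and 3.21) and LjMYB59 (2.11, 2.08 and 2.08). LjMYB100 and LjMYB82 were not well above background on any array.

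WRKY factors, many of which act in defence, had 54 of 75 genes above background (72%). ERF factors, of the ethylene response family, had 94 of 126 (74.6%). Both shares, like that of bHLH below, were near the 79.3% of all genes, and no difference was tested. LjERF9 (4.98, 5.16 and 5.01), LjERF75 (4.86, 5.19 and 4.84) and LjERF8 (4.37, 4.80 and 4.41) were all among the 50 brightest genes and all highest on array 2. A second probe of LjERF75 gave -0.71, -1.18 and -0.82, so its rank rests on 1 probe. LjWRKY38_est led its family at 3.09, 3.26 and 3.08, with 2 further probes, named LjWRKY38, at means of 2.92 and 2.80. The bHLH family had 100 of 122 genes above (82.0%), with LjbHLH121_est at 4.01, 3.96 and 4.01. In bZIP 39 of 45 were above (86.7%), with LjbZIP27 at 3.49, 3.54 and 3.47. Homeodomain genes had 69 of 81 above (85.2%), with LjHD77 at 4.59, 4.47 and 4.57. C3HC4 RING zinc fingers, the largest transcription class family by name with 208 genes, had 185 above background (88.9%). DOF zinc fingers had 21 of 22 (95.5%), led by LjZF-C2C2-DOF4 at 3.15, 3.07 and 3.22.

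The 18 heat shock factors ranged from -5.48 to 1.68; LjHSF16 gave 1.65, 1.73 and 1.60 and LjHSF10 1.52, 1.60 and 1.55. None of them was among the 50 brightest. Of the 17 AP2-like genes 12 were above background (70.6%, beside 79.3% of all genes), with LjAP2-like17 at 1.31, 1.59 and 1.36. The shares of GRAS and B3 were close to that of all genes. In GRAS, 33 of 42 genes were above (78.6%) and LjGRAS1 reached 4.68, 4.34 and 4.80. In B3, 42 of 52 were above (80.8%) and LjB3-8 reached 4.58, 4.34 and 4.54. In TCP, which includes regulators of leaf shape, 19 of 22 were above (86.4%) and LjTCP8 led at 2.71, 2.76 and 2.70.

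Names that carry a genomic clone allowed neighbours to be compared. Of 38 clones with at least 4 genes, 17 had every gene above background and 0 had none. With 79.3% of all genes above background, small clones with every gene above are common, and the counts were not tested. On clone CM0033, placed on chromosome 1 by the names, all 7 genes were above background, between 1.58 and 5.20; 6 of them were PAL genes. On clone CM0018 of chromosome 2 all 10 genes were above, between -0.08 and 2.87, of which 8 were CHS genes that lay within -0.08 to 0.59. Whether probes of such close copies read each other's transcripts was not tested. On clone LjT11K12, by contrast, only 1 of 6 CYP71D genes was above background, CYP71D_LjT11K12.30.nc at -3.32, -3.15 and -3.46. Among genes whose names give a chromosome, the share above background ran from 75.3% on chromosome 3 to 88.0% on chromosome 1. All genes stood at 79.3%.

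The arrays agreed closely for bright genes and less for dim ones. Over 2282 genes whose brightest probe was above background on all arrays, the median range between the 3 arrays was 0.27, and 1706 (74.8%) ranged by less than 0.5. The median range was 0.53 for the 360 genes at or under -4 and 0.16 for the 294 genes over 2. A range over 1 was seen in 146 genes (6.40%), of which 63 were at or under -4 and 1 was over 2. Arrays 1 and 3 lay closest together, and without array 2 the median range was 0.062. Over 4632 probes the median absolute difference was 0.06 between arrays 1 and 3, 0.22 between 1 and 2, and 0.21 between 2 and 3.

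Array 2 differed from the mean of the other arrays in a way that varied by family. It was higher in 819 of the 2282 genes (35.9%), with a median difference of -0.09. CHS genes were higher on array 2 in 20 of 28 cases, with a median of 0.32, and UGT genes in 96 of 163, whereas B3 genes were higher in 5 of 42 and Jumonji-C genes in 1 of 13. Of the 45 beta-glucosidase genes compared, 9 were higher by more than 1, out of 41 such genes in all. LjBGLU2_ntc gave 2.35, 3.73 and 2.33, and its other probe 1.61, 3.10 and 1.58. LjBGLU4_ntc gave 0.39, 1.65 and 0.37 at one probe but -2.53, -4.48 and -2.68 at the other, so its probes moved in opposite directions. Of the 2282 genes 53 were lower by more than 1 on array 2. They included 12 of 290 P450 and 7 of 145 MDR genes, both large families. They also included 5 of 100 bHLH, 4 of 37 MADS-box and 3 of 42 B3 genes. The P450 gene CYP716A_LjSGA_137705.1, for example, gave 2.36, 1.04 and 2.28. With 1 sample on each side these differences have no replicate check.

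**Figure D5:**
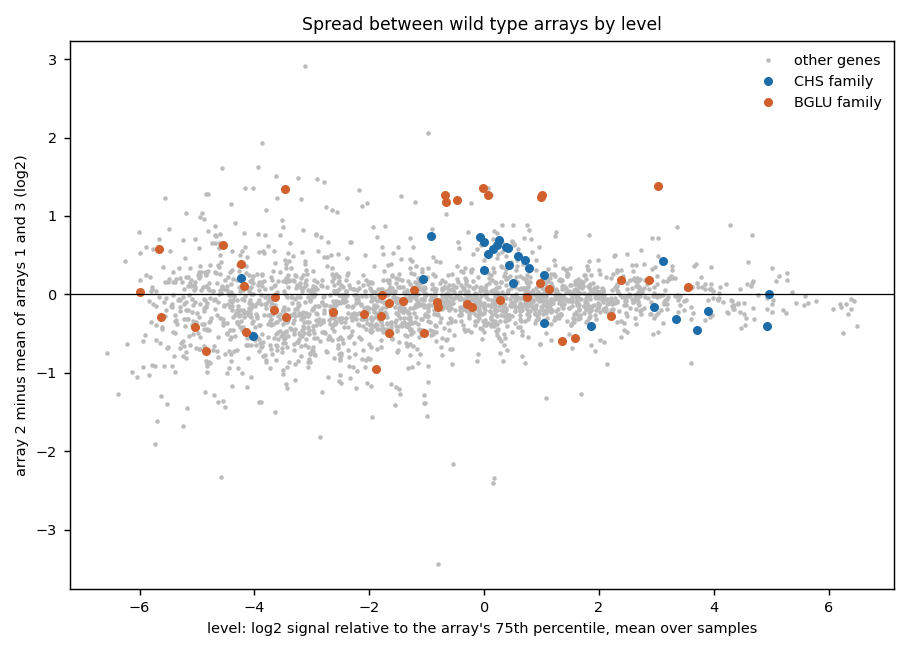
Difference of wild type array 2 from the mean of arrays 1 and 3 (log2) against the mean level, for genes whose brightest probe was above background on all 3 arrays. Grey points are other genes, blue CHS and orange beta-glucosidase (BGLU) genes. The scatter narrows towards bright genes; 9 BGLU genes lie more than 1 above 0, and 20 of 28 CHS genes lie above 0.

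The 8 widest ranges belonged to 7 regulators and 1 transporter. LjbHLH11 gave 0.97, -2.51 and 0.88, and its other probe 0.33, -2.89 and 0.37, so both probes showed the drop on array 2. LjbHLH5 behaved alike at 1.33, -1.05 and 1.40, with its other probe at -0.75, -3.04 and -0.65. LjERF60 went the other way at -4.61, -1.66 and -4.56, and its second probe at -5.49, -2.21 and -5.14. For these 3 genes at least 2 probes moved together, which was not so for the others. LjFHA9_est gave 1.39 and 1.28 on arrays 1 and 3 and was lower on array 2, with a range of 2.39, while the probes named LjFHA9 were level at means of -3.90 and -5.01. LjMADS71 gave -3.30, -5.76 and -3.55 at one probe and was not well above background at the other. LjHD38 (-5.62, -6.69 and -3.95), LjbZIP37 (-4.39, -3.32 and -2.13) and MDR130_LjSGA_020301.1 (-4.27, -2.90 and -5.38) were dim genes in which arrays 1 and 3 also differed by more than 1.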

How the data were processed

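Total RNA of wild type leaf was purified with a column kit with on-column DNase and hybridised to 1-colour arrays, per the labels' protocols. Per the file headers, the authors' deposited intensity of each spot had its background subtracted and a spatial trend removed by the scanner software. Scans were read with Agilent Feature Extraction 10.7.3.1, per the submitters' processing notes. The deposited value table held the same intensity in 45534 of 45534 cells (relative tolerance 0.0001), with no log, centring or scaling between arrays, and column medians of 5.96, 5.72 and 5.94 in log2.

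Each deposited intensity was put on the log2 scale relative to the 75th percentile of the 14642 spots of its array that were no controls. Between 32 and 78 spots per array carried an outlier flag and were dropped, and spots of 1 probe were averaged. A probe was above background on an array where at least 0.5 of its spots were flagged so. Names sharing a locus identifier were joined, and 57 genes counted in 2 families under different names. Genes without a shared identifier may be counted more than once. Python 3.11.15 (numpy 2.4.6, pandas 2.3.3) was used, and limma 3.58.1 in R 4.3.3 for the alternatives. The counting was tested on simulated data. No groups were compared and no p-value was computed, since only wild type arrays are described, and the number of arrays limits the precision. All 3 arrays lay on 1 slide.

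The genes named are the 15 brightest, the brightest of each family of at least 10 genes, up to 3 brightest and up to 2 undetected genes per pathway list, the 8 widest ranges, LjMYB14, LjMYB76a and clones of at least 4 genes with all or no genes above background. This rule gave 170 names, of which those that carry a result are printed. A result on 1 item is not reported here. Further members of the cyanogenic, CHR, HID and BGLU names, clones with few genes above background, and the genes that moved on array 2 were added after their values were seen. Families, lists and rule were chosen with earlier results of these data known. Of the 3469 names, 0 matched the reference gene table, so no position or sequence is given.

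Alternatives covered the detection call, the probe that stands for a gene, background correction, scaling, the size of the top list and each array left out.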

Additional observations from a re-analysis of the deposited data

How the results depend on the processing

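No paired analysis was possible because only 1 group, wild type leaf, was described and no groups were compared. Counts of probes and genes above background stayed within 1.5 times their values under all 9 alternatives of each. Within this bound the share of all genes, 79.3%, was 62.8% with every probe of a gene required and 89.4% with 1 of 3 arrays enough. Of 276 family shares under alternatives 273 stayed within the same 1.5 times, a wide bound that a high share cannot pass upward. The number of families with every gene above background still ran from 2 to 12 between settings. With every probe of a gene required, the shares fell to 33.3% for dirigent and 17.4% for MADS-box genes, and with 1 of 3 arrays enough MADS-box rose to 68.6%. CHR and MADS-box had the lowest 2 shares under each of the 7 settings compared, with MADS-box lowest, and CHR level with dirigent, where every probe was required. Family medians relative to the median of all genes were 6.01 (AUX-IAA), 5.25 (PAL), 3.68 (NIT), -4.29 (MADS-box), -2.74 (NAC), -2.50 (MYB) and -4.61 (CHR). In the same order they were 5.36, 4.50, 2.91, -1.22, -0.999, -0.99 and -1.23 with normexp, which compresses dim signals through its offset of 50; 5.31, 4.66, 4.26, -3.87, -2.52, -2.07 and -4.38 with the mean over probes; and 4.94, 4.18, 2.94, -2.87, -1.27, -1.56 and 1.17 with only genes above background, where the sign turned for CHR because 4 genes were left. NAC was at -2.56 with arrays 1 and 3 counted singly and between -2.75 and -2.59 with 1 array left out. AUX-IAA made up 20% of the 50 brightest genes, 12% of the top 100 and 36% of the top 25. PAL made up 6% to 10% of the top list with 1 array left out, highest without array 2. The median range between arrays was 0.17 with normexp and 0.062 to 0.23 with 1 array left out, lowest without array 2, where only the nearly coinciding arrays 1 and 3 remained. Of the single gene levels relative to the median of all genes, 439 of 1530 under alternatives moved by more than the SD between samples. Normexp moved 162 of 170, the mean over probes 153 and leaving out array 2 moved 77. Leaving out the scaling, or scaling on detected probes, shifts all genes alike and could not move a relative level, so the pooled count understates the dependence. Normexp was planned on mean signals and run on median signals, which the files hold; this and the single counting of arrays 1 and 3 were chosen after seeing the data. Signal over background limits every statement on dim genes, and n = 2 limits every SD.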

Other observations

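Several further families of regulators had a larger share of genes above background than the 79.3% of all genes, a difference that was not tested. FHA-domain genes had 13 of 14 above background, led by LjFHA10 at 4.07, 4.04 and 4.14 on arrays 1, 2 and 3. SBP genes, which include regulators of plant age and leaf form, had 15 of 16, led by LjSBP9 at 3.59, 3.39 and 3.58. LIM genes had 11 of 12, led by LjLIM1 at 3.50, 3.27 and 3.48, and HD-PHD genes 55 of 61 with 5 on no array, led by LjHD-PHD13 at 3.97 and 3.94 on arrays 1 and 3. Jumonji-C genes, whose domain is that of histone demethylases, had 13 of 14 above background but reached only 1.70, 1.55 and 1.77 at LjJumonji-C13. The GATA gene LjZF-C2C2-GATA3 stood at 3.89, 3.96 and 3.89, and the trihelix gene LjTrihelix3 at 2.92, 3.01 and 2.91.

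In the larger zinc finger families LjZF-C3HC4-31 gave 4.19, 4.10 and 4.21 and LjZF-C2H2-96 gave 4.10, 4.03 and 4.10. The MYB-related genes LjMYBother6 (5.02, 4.83 and 5.02) and LjMYB-GARP-G2-like21_est (4.49, 4.36 and 4.46) had a higher signal than any gene of the MYB family itself, whose highest mean was 4.34. LjSRS1 stood at 2.77, 3.16 and 2.84 in a family with a median of -2.93. The gene 7Methyl7_LjSGA_061523.2 had a mean of 1.45 ± 0.06 (SD, n = 2) at one probe, in a family with a median of -4.56. Genes whose names carry an Arabidopsis locus code had 34 of 36 above background.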
